A study of Mus musculus with 8 samples.

Results

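The interferon-stimulated genes described here were 54 named genes, of which 53 had a row in the deposited gene table. Members were taken by gene symbol where a value of at least 10 was present in at least 2 of the 8 libraries, and all 53 rows met this, out of 13358 genes that did so among the 18438 in the table. The member whose second-highest library was lowest, Oas1g, still had 40.0 there, with values from 10.5 to 47.9 over the 8 libraries. Isg15, the remaining named gene, was not analysed here. The RNA was from splenic T cells that were sorted from C57BL/6 mice, 7 days into EAE (experimental autoimmune encephalomyelitis), an inflammatory disease of the central nervous system that was set off by immunisation with the myelin antigen MOG. There were 4 groups of 2 libraries each: KO Treg, WT Treg, KO Teff and WT Teff. KO stands for mice labelled IRE1a-/- and WT for wild type, Treg (regulatory T cells) were sorted as CD4+ CD25hi YFP+ and Teff (effector T cells) as CD4+ CD25- YFP-. All mice had EAE. The labels do not say which cells had lost IRE1a, which part of its gene Ern1 was removed, what drives the YFP marker, or whether separate animals gave the replicates. The p-values therefore measure only the spread between libraries, which may be technical.

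Interferons are secreted proteins that put cells into an antiviral state. Type I interferons act through the receptor of Ifnar1 and Ifnar2 and activate a complex that holds STAT2 and IRF9 and binds a DNA element called the ISRE. Interferon gamma, the product of activated T cells and natural killer cells, acts through Ifngr1 and Ifngr2, signals to an element called GAS and induces IRF1. The genes switched on include sensors of viral RNA, enzymes that destroy or mark it, and large GTPases that attack the compartments of intracellular microbes. IRE1a, a kinase and RNase of the endoplasmic reticulum membrane, is activated by unfolded proteins.

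Values are the authors' normalized read numbers, which summed to between 17504097 and 18751258 per library, with 16324 to 16642 genes above 0. Replicates correlated across tested genes at r of 0.977 to 0.978 on the log2 scale. Ern1, the targeted gene on chromosome 11, had 326 and 359 in the KO Treg libraries against 377 and 399 in WT Treg, and 458 and 453 in KO Teff against 559 and 616 in WT Teff. Its KO values were lower without overlap in both cell types, but neither difference passed the test used throughout (limma on log2(value + 1), Benjamini-Hochberg adjusted p over all 13358 genes, called below 0.05; adjusted p = 0.489 in Treg and 0.0902 in Teff). Cd3e, a subunit of the T cell receptor complex, was between 7069 and 8423 in all libraries. Of the 5 T cell markers in the table, 0 were called between genotypes in either cell type. In Treg against Teff, 2 were called lower in WT and 3 in KO, against 11.6% and 11.2% of all genes. Cd4 ran from 17060 to 19080 in the Treg libraries and from 22540 to 25060 in the Teff libraries. Foxp3, the defining factor of Treg, had 111 and 117 in KO Treg, 89.1 and 92.2 in WT Treg, 2.06 and 8.29 in KO Teff and 0 in WT Teff (both libraries). The other 5 Treg markers listed, Il2ra, Ikzf2, Ctla4, Tnfrsf18 and Nrp1, were below 0 in KO in both cell types, and all but Il2ra were called lower in KO Teff. Macrophage and monocyte markers were also present. The 10 such genes in the table, of 12 listed, summed to 11120 and 10530 in KO Treg against 18420 and 19030 in WT Treg, and to 1168 and 871 in KO Teff against 2512 and 1453 in WT Teff.

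The members covered a wide range of levels. Per 1000 bases of exon, the mean over all 8 libraries was highest for Ly6e, a membrane-anchored surface protein, at 8122, and for Ifi27l2a at 6470. The immunity-related GTPase gene Igtp followed at 1522, and then Irf1 at 1112. At the other end were Iigp1 at 13.4, the 2'-5'-oligoadenylate synthetase gene Oas1g at 12.7 and Ifi44 at 8.79. On the normalized read scale, Ly6e alone made up 25.8% to 33.3% of the members' sum in each library. That sum, as a share of the library, was 0.613% and 0.616% in KO Treg against 0.640% and 0.647% in WT Treg, and 0.458% and 0.490% in KO Teff against 0.541% and 0.535% in WT Teff. The share was lower in KO than in WT without overlap in both cell types, and higher in Treg than in Teff in both genotypes.

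Promoter stretches are shown because ISRE and GAS are the elements through which interferon acts on such genes. The RefSeq promoter table (GRCm38.p6, 250 bases before and 50 after each start) held 39 of the 53 members. An ISRE core, GAAA, 2 of any base and GAAA on either strand, was found in the windows of 23 of these (59.0%), against 3.99% of all 27025 genes in the table. The GAS motif TTCNNNGAA was found in 13 (33.3%) against 9.55% of all genes. A match is only a run of letters and does not show binding, and the motifs may overlap. The stretches below are given 5′ to 3′ in the direction of the gene, with every match in capitals. The first group holds members that were lower in KO Teff.

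Oas1a: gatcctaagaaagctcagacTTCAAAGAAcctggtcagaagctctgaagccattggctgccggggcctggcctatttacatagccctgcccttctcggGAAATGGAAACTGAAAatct
Oas3: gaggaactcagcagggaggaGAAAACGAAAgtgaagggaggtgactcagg
Ifit1: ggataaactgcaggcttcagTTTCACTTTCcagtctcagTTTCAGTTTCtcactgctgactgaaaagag
Gbp2: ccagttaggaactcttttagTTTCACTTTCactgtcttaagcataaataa
Gbp3: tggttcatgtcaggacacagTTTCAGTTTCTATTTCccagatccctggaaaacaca
Phf11b: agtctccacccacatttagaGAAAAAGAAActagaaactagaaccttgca
Isg20: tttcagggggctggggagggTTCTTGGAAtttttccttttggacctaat

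Oas1a (chr5:120907526-120907643, minus strand) held a GAS match and 2 overlapping ISRE matches, and Oas3 (chr5:120777705-120777754, minus strand) 1 ISRE match. Ifit1 (chr19:34640765-34640833, plus strand) held 2 separate ISRE matches. Gbp2 (chr3:142620584-142620633, plus strand) held 1, Gbp3 (chr3:142559979-142560034, plus strand) 2 that overlap, and Phf11b (chr14:59341351-59341400, minus strand) 1. Isg20 (chr7:78913331-78913379, plus strand) held a GAS match only. A second group shows members that were not called between genotypes, and pairs of close relatives.

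Ifit3: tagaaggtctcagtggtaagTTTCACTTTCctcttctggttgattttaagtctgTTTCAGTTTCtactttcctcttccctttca
Ifit3b: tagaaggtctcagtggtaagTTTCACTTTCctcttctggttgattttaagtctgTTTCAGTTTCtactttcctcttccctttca
Igtp: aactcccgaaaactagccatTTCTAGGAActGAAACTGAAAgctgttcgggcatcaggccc
Irgm2: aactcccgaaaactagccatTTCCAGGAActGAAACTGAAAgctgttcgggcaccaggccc
Tgtp1: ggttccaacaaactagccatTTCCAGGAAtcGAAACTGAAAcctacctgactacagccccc

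The stretches of Ifit3 (chr19:34583353-34583436, plus strand) and Ifit3b (chr19:34607749-34607832, plus strand) were identical at 84 of 84 bases. Those of Igtp (chr11:58199491-58199551, plus strand) and Irgm2 (chr11:58214882-58214942, plus strand) were identical at 59 of 61. In Igtp, Irgm2 and Tgtp1 (chr11:48992294-48992354, minus strand) a GAS match stood directly before an ISRE match.

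The first comparison asked how the members differed between KO and WT Teff. Members of several antiviral families were lower in KO Teff. They were led by the oligoadenylate synthetases Oas1a and Oas3, the RNA exonuclease Isg20, the RNA sensors Ifih1 and Dhx58, and 3 guanylate-binding proteins. Falls were modest: the 13 members called lower stood at 0.559 to 0.759 of their WT level. One member, Trim12a, was higher. The transcription factors of the pathway that are members were not called.

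Of the 53 members, 13 were called lower in KO Teff (24.5%), against 5.08% of all tested genes, and 1 was called higher, against 1.84%. The fold change was below 0 for 45 of 53 members, against 52.8% of all genes, with a median of -0.26 on the log2 scale against -0.02 for all genes. Both KO Teff values lay below both WT Teff values for 32 members (60.4%), against 27.4% of all genes. The authors' deposited table, with their own test, had 15 members lower and 1 higher in KO Teff at an adjusted p under 0.05, against 6.27% and 2.55% of the 12818 genes with a value there. The 15 included all 13 found here, and added Rsad2 and Gbp7.

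**Figure D1:**
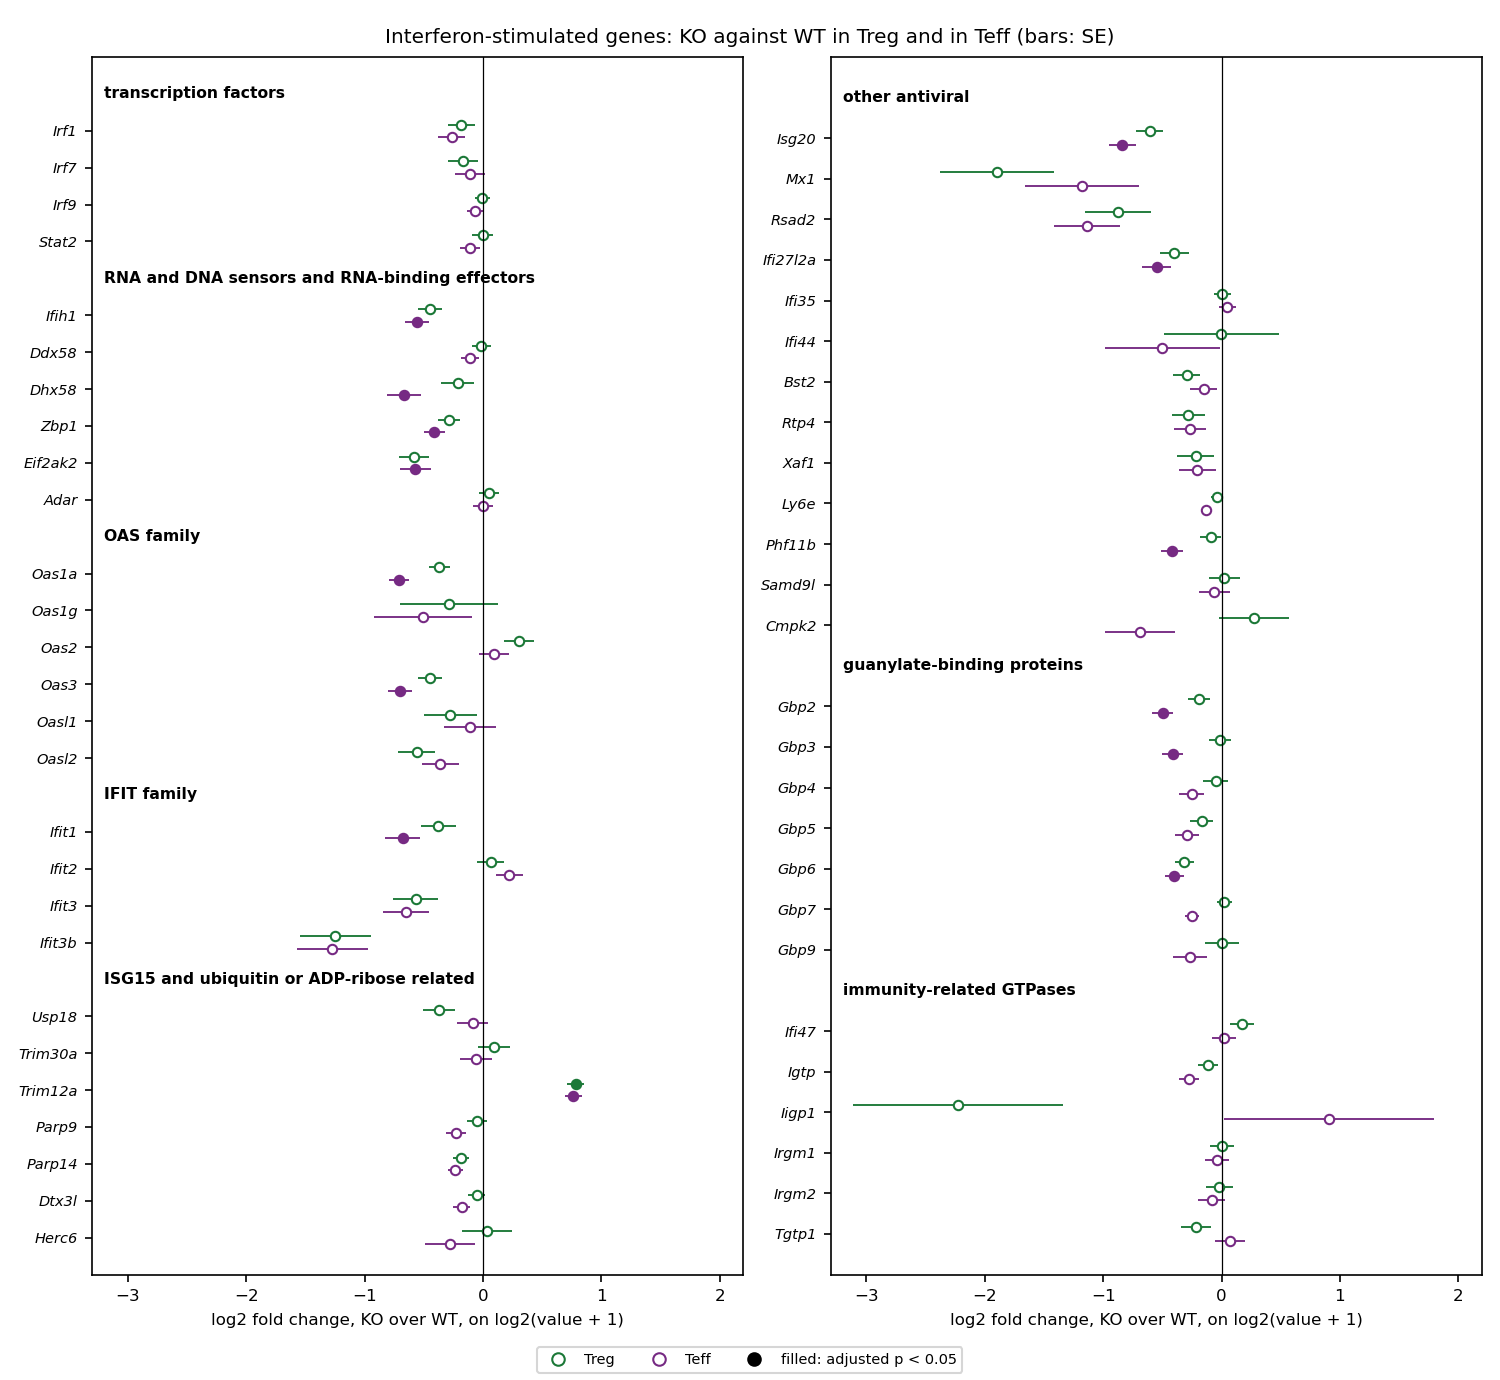
Log2 fold change of KO over WT with its standard error (x axis, log2(value + 1) scale) for each of the 53 members (rows, by role), in Treg (green) and Teff (purple). Filled points passed an adjusted p of 0.05. In Teff 13 points to the left of 0 are filled, in Treg none, and Trim12a is filled on the right in both.

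The 4 transcription factors did not pass the test in KO Teff. Stat2, a subunit of the ISRE-binding complex, had 1293 and 1505 in KO Teff against 1544 and 1461 in WT Teff (log2 fold change -0.11, SE 0.09, adjusted p = 0.536). Irf9, which gives that complex its DNA contact, had 2197 and 2228 against 2366 and 2277 (log2 fold change -0.07, adjusted p = 0.610). Irf7, an amplifier of type I interferon production, had 1478 and 1520 in KO Teff against 1481 and 1762 in WT Teff. Irf1, the factor best known from interferon gamma, had 3724 and 3575 in KO Teff against 4205 and 4561 in WT Teff (log2 fold change -0.26, adjusted p = 0.243). The KO libraries lay below the WT libraries for Irf9 and Irf1 and overlapped them for Stat2 and Irf7.

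Among the 6 sensors and RNA-binding effectors, 4 fell in KO Teff. Ifih1 encodes MDA5, a sensor of long viral RNA, and had 503 and 503 in KO Teff against 739 and 742 in WT Teff (log2 fold change -0.56, SE 0.10, adjusted p = 0.0220). Dhx58 encodes LGP2, a helper of MDA5, and had 318 and 347 against 515 and 540 (log2 fold change -0.67, SE 0.14, adjusted p = 0.0348). The replicates of each group lay close together for both genes. Eif2ak2 encodes PKR, a kinase that stops translation on viral RNA, and had 317 and 280 in KO Teff against 494 and 397 in WT Teff (log2 fold change -0.57, adjusted p = 0.0442). Zbp1, a sensor of Z-form nucleic acid that can trigger cell death, averaged 2047 ± 59.6 in KO Teff and 2726 ± 258 in WT Teff (SD, n = 2 each; log2 fold change -0.41, adjusted p = 0.0395). The other 2 were Ddx58, which encodes the sensor RIG-I (log2 fold change -0.11, adjusted p = 0.481), and the RNA-editing enzyme Adar (log2 fold change 0.00, adjusted p = 0.999).

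Among the 6 members of the oligoadenylate synthetase family, 2 fell. These enzymes respond to viral RNA by making a messenger that activates RNase L. Oas1a (chromosome 5, as all 6) had 375 and 398 in KO Teff against 654 and 611 in WT Teff (log2 fold change -0.71, SE 0.09, adjusted p = 0.00585). Oas3 had 811 and 863 against 1389 and 1332 (log2 fold change -0.70, SE 0.10, adjusted p = 0.0108). For both genes the gap between genotypes was far wider than the gap between replicates. Oas2 did not move with them: it had 688 and 687 in KO Teff against 698 and 594 in WT Teff, with overlapping groups (log2 fold change 0.09, adjusted p = 0.718). The family members Oasl2 (-0.36), Oasl1 (-0.11) and Oas1g (-0.51) were not called. Reads of Oas1a and Oas1g can be shared, as their sequences are alike, so their split is uncertain.

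Of the 4 IFIT genes, which encode RNA-binding proteins that block viral translation and lie together on chromosome 19, 1 fell. Ifit1 had 204 and 263 in KO Teff against 371 and 372 in WT Teff (log2 fold change -0.68, SE 0.15, adjusted p = 0.0400). Ifit3 had 113 and 130 against 181 and 202 (log2 fold change -0.65, adjusted p = 0.0997), and Ifit3b had 20.6 and 20.6 against 47.2 and 55.5 (log2 fold change -1.27, SE 0.30, adjusted p = 0.0507). Neither pair overlapped, and neither passed. Ifit3 and Ifit3b are near-identical copies that can share reads. Ifit2 had 844 and 932 in KO Teff against 714 and 809 in WT Teff (log2 fold change 0.22, adjusted p = 0.321), so its KO values were the higher ones, without overlap.

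Of the 13 other antiviral genes, 3 fell. Isg20, an exonuclease that degrades viral RNA, had 280 and 310 in KO Teff against 483 and 577 in WT Teff (log2 fold change -0.84, SE 0.11, adjusted p = 0.00838). Of the 13 members called lower it had the largest fall. Ifi27l2a, an interferon-alpha-inducible gene of a small hydrophobic protein, averaged 2205 ± 200.4 in KO Teff and 3237 ± 556 in WT Teff (log2 fold change -0.55, adjusted p = 0.0424). Phf11b averaged 926 ± 105 in KO Teff and 1234 ± 10.1 in WT Teff (log2 fold change -0.42, adjusted p = 0.0366; SD, n = 2 each).

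Larger fold changes occurred in weaker genes that did not pass. Rsad2, the antiviral radical enzyme viperin, had 54.6 and 68.1 in KO Teff against 113 and 162 in WT Teff (log2 fold change -1.14, SE 0.28, adjusted p = 0.0578). Mx1, a gene of the Mx family of GTPases, had 74.0 and 252 in KO Teff against 320 and 302 in WT Teff (log2 fold change -1.18, SE 0.48, adjusted p = 0.212). The 2 KO Teff libraries thus differed widely from each other in Mx1, and its log2 fold change was -0.30 without KO Teff replicate 1 (limma adjusted p = 0.388) and -2.05 without KO Teff replicate 2 (adjusted p = 0.00792). Each of these fits leaves 1 KO Teff library, which is assumed to vary like the other groups. Bst2, which encodes tetherin, an anchor that holds budding viruses to the cell, had 874 and 793 against 848 and 1008, with overlap (log2 fold change -0.15, adjusted p = 0.511). Ly6e, the member of highest level, had 25000 and 23250 in KO Teff against 26400 and 26420 in WT Teff (log2 fold change -0.13, adjusted p = 0.149).

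Among the 7 analysed genes of ISG15, ubiquitin and ADP-ribose modification, none fell and 1 rose. Trim12a belongs to a rodent family of TRIM genes on chromosome 7 related to Trim5, a restriction factor of retroviruses. It had 1968 and 2116 in KO Teff against 1182 and 1219 in WT Teff (log2 fold change 0.76, SE 0.07, adjusted p = 0.00246). Usp18, the protease that takes ISG15 off proteins and restrains the type I receptor, had 290 and 338 against 334 and 331, with overlap (log2 fold change -0.09, adjusted p = 0.763). Herc6, the mouse ligase for ISG15, had the lowest fold change of this group at -0.28 (adjusted p = 0.50).

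All 7 guanylate-binding protein genes, whose products coat and break open compartments that hold microbes, were below 0 in KO Teff, each without overlap, and 3 were called. Gbp2 had 1340 and 1559 in KO Teff against 1960 and 2129 in WT Teff (log2 fold change -0.50, SE 0.09, adjusted p = 0.0221). Gbp6 had 1717 and 1861 against 2486 and 2231 (log2 fold change -0.40, SE 0.08, adjusted p = 0.0294), and Gbp3 had 396 and 403 against 501 and 565 (log2 fold change -0.41, SE 0.09, adjusted p = 0.0377). The replicates within a group differed less than the genotypes in each case. Gbp7 had -0.25 and just missed the threshold (adjusted p = 0.0608), and Gbp4, Gbp5 and Gbp9 lay between -0.29 and -0.25. Gbp4 and Gbp9 overlap in the genome, and Gbp6 can share reads with Gbp10.

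None of the 6 immunity-related GTPase genes was called in KO Teff. These proteins mark and disrupt vacuoles of intracellular parasites and bacteria. Igtp had 2537 and 2959 in KO Teff against 3343 and 3299 in WT Teff (log2 fold change -0.28, SE 0.08, adjusted p = 0.103), and Tgtp1 had 969 and 1255 against 1078 and 1026 (log2 fold change 0.07, adjusted p = 0.812). The group's median was -0.01, and Iigp1 had 72.2 and 45.3 in KO Teff against 86.4 and 10.1 in WT Teff, so its replicates differed more than its groups. Igtp and Irgm2 overlap in the genome and Tgtp1 has a near-identical copy, Tgtp2, so their reads may be shared.

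**Figure D2:**
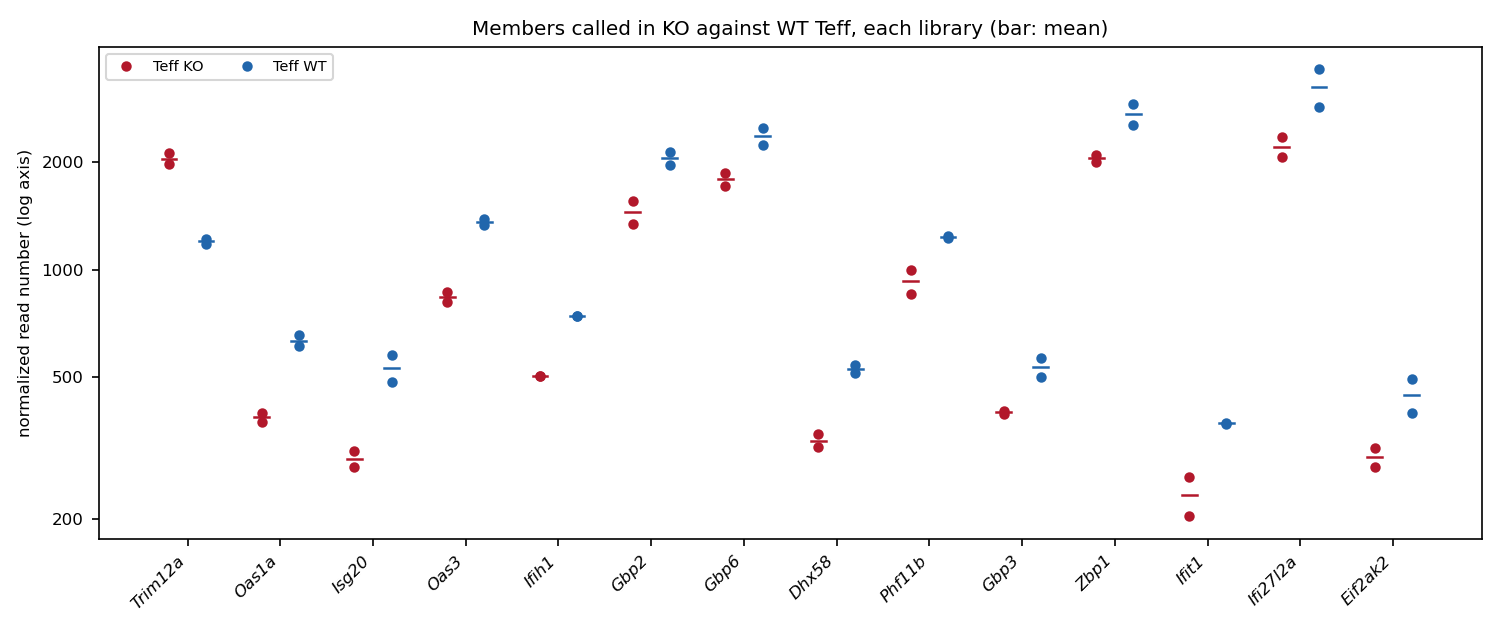
Normalized read numbers (log axis) of the 14 members called in Teff, with KO Teff (red) left of WT Teff (blue). Points are libraries and bars are means of 2. Both KO points of Oas1a (375 and 398) lie below both WT points (654 and 611), the order reverses for Trim12a, and in no gene do the groups overlap.

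The number of calls rested on the full set of 8 libraries. Fewer members were called lower in KO Teff when any single library was left out. Without KO Teff replicate 1 the members' median was -0.17 on the log2 scale, with 37 of 53 below 0. Fitting the 4 Teff libraries alone left 1 member called lower (1.89%), against 0.921% of all genes. Oas1a and Isg20 lost their call only in that last fit (adjusted p = 0.0554 and 0.0653), Oas3 only without either WT Teff library (adjusted p up to 0.0543), and Trim12a in none of 18 alternatives (adjusted p up to 0.0343). The other 10 members called lower lost it in 5 to 13 of the 18, with adjusted p up to 0.186.

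The second comparison was KO against WT Treg. The pattern of direction was like that in Teff, but apart from Trim12a no member passed the test. Oas1a, Oas3, Ifih1, Eif2ak2, Isg20, Mx1, Ifit1, Ifit3 and Ifit3b had lower values in both KO Treg libraries than in either WT Treg library, with log2 fold changes from -1.90 to -0.37, none of which passed.

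In KO Treg 1 of 53 members was called higher, against 0.674% of all tested genes, and 0 were called lower, against 0.779%. At an unadjusted p under 0.05 there were 20 members, in either direction, against 14.7% of all genes. The authors' deposited table had 5 members lower (Isg20, Mx1, Oas3, Gbp6 and Eif2ak2), against 1.87% of its 13824 genes, and 1 higher, against 1.4%. The fold change was below 0 for 40 members, against 51.7% of all genes, with a median of -0.17 against -0.01. Both KO Treg values lay below both WT Treg values for 28 members (52.8%), against 25.9% of all genes.

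Trim12a had 1521 and 1438 in KO Treg against 869 and 846 in WT Treg (log2 fold change 0.79, SE 0.07, adjusted p = 0.00308; at most 0.0438 in 18 alternatives). The gene can share reads with its relative Trim12c, which had 659 and 716 in KO Treg against 978 and 920 in WT Treg (log2 fold change -0.47, adjusted p = 0.198). The 2 genes thus lay on opposite sides of 0 in Treg. In Teff, Trim12c had 695 and 900 in KO against 840 and 1015 in WT, with overlap. How the reads were divided between the 2 genes was not tested. Of their neighbours on chromosome 7, Trim30a, also a member, had a log2 fold change of 0.09 in Treg and -0.06 in Teff. Trim34a had 602 and 644 in KO Treg against 384 and 416 in WT Treg (log2 fold change 0.64, adjusted p = 0.0681), and 564 and 712 in KO Teff against 478 and 453 in WT Teff (log2 fold change 0.45, adjusted p = 0.0916). Trim30d had 634 and 578 in KO Treg against 415 and 387 in WT Treg (log2 fold change 0.59, adjusted p = 0.138), and 492 and 408 in KO Teff against 333 and 433 in WT Teff, with overlap (log2 fold change 0.24, adjusted p = 0.439). None of these neighbours was called, and Trim34a and Trim30d had higher values in KO Treg without overlap, as Trim12a did.

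The 5 members nearest the threshold in KO Treg were all among those called lower in KO Teff. Each gene had the same standard error in both contrasts, so part of this overlap is built into the fit. Isg20 had 522 and 513 in KO Treg against 793 and 784 in WT Treg (log2 fold change -0.61, SE 0.11, adjusted p = 0.0585), and was called when the 4 Treg libraries were fitted alone (adjusted p = 0.0446) or with quantile normalization (adjusted p = 0.0449). Eif2ak2 had 518 and 494 against 757 and 756 (log2 fold change -0.58, SE 0.13, adjusted p = 0.0891). In both genes the replicates lay close together and the genotypes far apart. Oas3 had 608 and 726 in KO Treg against 883 and 932 in WT Treg (log2 fold change -0.45, adjusted p = 0.0934), and Ifih1 had 618 and 740 against 931 and 911 (log2 fold change -0.45, adjusted p = 0.0934). Oas1a had 783 and 738 in KO Treg against 965 and 998 in WT Treg (log2 fold change -0.37, adjusted p = 0.105). None of these overlapped between genotypes.

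Mx1 had close replicates and well separated genotypes in Treg, with 63.9 and 61.0 in KO Treg against 237 and 234 in WT Treg (log2 fold change -1.90, SE 0.48, adjusted p = 0.125). Its standard error was shared with Teff, where the 2 KO libraries differed. When the 4 Treg libraries were fitted alone its adjusted p was 0.0172. It was 0.00341 without KO Teff replicate 1 and 0.00431 without KO Teff replicate 2. Ifit3b had 12.8 and 13.8 in KO Treg against 39.2 and 27.5 in WT Treg (log2 fold change -1.25, SE 0.30, adjusted p = 0.110), and Ifit1 had 211 and 198 against 255 and 276 (log2 fold change -0.38, adjusted p = 0.307). Ifit3 had 94.4 and 127 in KO Treg against 171 and 155 in WT Treg (log2 fold change -0.57, adjusted p = 0.232). In the IFIT family, as in Teff, Ifit2 was the member not below 0 (0.07).

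None of the following members was called in Treg. Usp18 had 306 and 294 in KO Treg against 355 and 423 in WT Treg, and Bst2 had 806 and 934 against 1070 and 1059. Oas2 had 199 and 211 in KO Treg against 156 and 176 in WT Treg, so it stood above WT without overlap (log2 fold change 0.31, adjusted p = 0.316). Iigp1 had the lowest fold change of all, with 22.6 and 53.1 in KO Treg against 183 and 151 in WT Treg (log2 fold change -2.23, SE 0.89, adjusted p = 0.309). The fit shares its spread with Teff, where the 2 WT libraries of this gene differed widely. The 4 transcription factors were all between -0.18 (Irf1) and 0. Irf1 had 3950 and 5136 in KO Treg against 5181 and 5046 in WT Treg, and Stat2 had 1492 and 1558 against 1520 and 1535.

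No guanylate-binding protein gene was called between genotypes in Treg. Gbp6 had 2888 and 2683 in KO Treg against 3532 and 3396 in WT Treg (log2 fold change -0.32, SE 0.08, adjusted p = 0.123), while Gbp3 had 1843 and 1688 against 1748 and 1813 (log2 fold change -0.01) and Gbp7 had 3120 and 3056 against 3023 and 3053 (log2 fold change 0.02). The group's median was -0.05. Gbp2 had 2512 and 2450 in KO Treg against 2717 and 2948 in WT Treg (log2 fold change -0.19, adjusted p = 0.40).

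Set side by side, 38 of 53 members (71.7%) were below 0 in both cell types, against 33.7% of all tested genes, and 23 (43.4%) were lower without overlap in both, against 12.2%. Trim12a was the 1 member called in both, against 0.966% of all genes. The difference between the KO effects, Treg minus Teff, was tested directly. No member passed, against 0.0225% of all genes (3 genes), and 6 had an unadjusted p under 0.05, against 10.4% of all genes. All 7 guanylate-binding protein differences were above 0, between 0.08 and 0.40, led by Gbp3 at 0.40 (SE 0.13, adjusted p = 0.340) and Gbp7 at 0.27 (SE 0.09, adjusted p = 0.350). The members called in Teff and not in Treg are therefore not shown to differ in effect between the cell types.

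The third comparison set Treg against Teff within each genotype. The members split by gene rather than moving together. The guanylate-binding proteins encoded on chromosome 3, Ly6e, Oas1a, Isg20 and Eif2ak2 were higher in Treg. Oas2, Oas3, Ddx58 (RIG-I), Trim12a and the GTPase genes Ifi47 and Tgtp1 were lower in Treg. In KO cells 14 members were higher in Treg (26.4%) and 8 lower (15.1%), against 15.7% and 11.2% of all genes. In WT cells 11 were higher (20.8%) and 8 lower (15.1%), against 13.5% and 11.6%. Calls in both directions were thus also common among all genes. The same direction was called in both genotypes for 17 members (32.1%), against 18.3% of all genes.

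**Figure D3:**
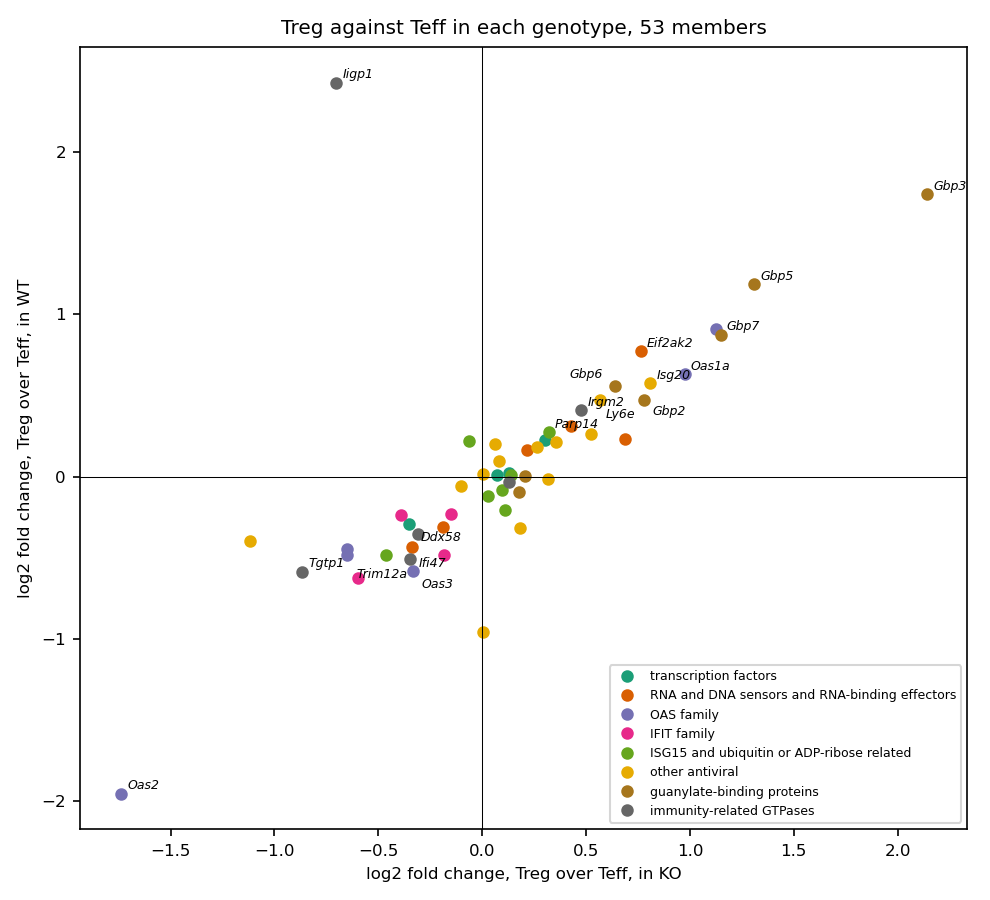
Log2 fold change of Treg over Teff in KO (x axis) and in WT (y axis) for the 53 members, each a point coloured by role; named points were called in both genotypes, plus Iigp1, called in neither. Gbp3 lies at the top right (2.14 in KO and 1.74 in WT) and Oas2 at the bottom left (-1.74 and -1.95).

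Gbp3 had 1843 and 1688 in KO Treg against 396 and 403 in KO Teff (log2 fold change 2.14, SE 0.09, adjusted p = 1.08e-05), and 1748 and 1813 in WT Treg against 501 and 565 in WT Teff (log2 fold change 1.74, adjusted p = 2.96e-05). Gbp5 had 1575 and 1460 in KO Treg against 561 and 666 in KO Teff (log2 fold change 1.31, adjusted p = 9.93e-05), and 1659 and 1752 in WT Treg against 737 and 761 in WT Teff (log2 fold change 1.19, adjusted p = 0.000216). Gbp5 takes part in inflammasome activation. Gbp7 was higher by 1.15 in KO and 0.87 in WT (adjusted p = 2.71e-05 and 0.000104), and Gbp2 by 0.78 and 0.47 (adjusted p = 0.000691 and 0.00830). These 4 genes lie in a cluster on chromosome 3. Of the 3 on chromosome 5, Gbp6 was higher in Treg (0.64 in KO and 0.56 in WT, adjusted p = 0.000957 and 0.00213), while Gbp4 (0.21 and 0.01) and Gbp9 (0.18 and -0.09) were not called. The Gbp2 call in WT was lost without WT Treg replicate 2 (adjusted p = 0.0617). Those of Gbp3, Gbp5, Gbp6 and Gbp7 held in all 18 in both genotypes.

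**Figure D4:**
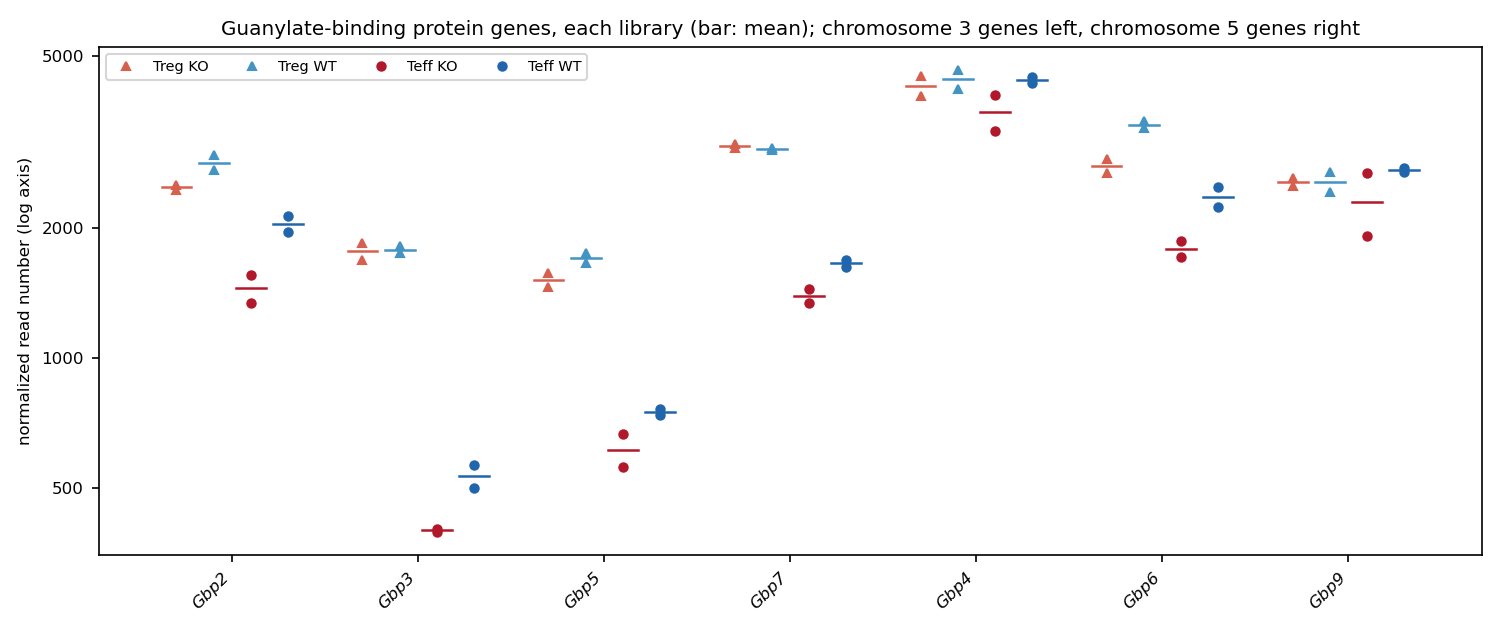
Normalized read numbers (log axis) of the 7 guanylate-binding protein genes in every library, Treg as triangles and Teff as circles, KO in red and WT in blue; bars are means of 2. Gbp3 separates Treg (1688 to 1843) from Teff (396 to 565), whereas Gbp4 and Gbp9 do not.

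The oligoadenylate synthetases, neighbours on chromosome 5, went in opposite directions. Oas2 had 199 and 211 in KO Treg against 688 and 687 in KO Teff (log2 fold change -1.74, SE 0.12, adjusted p = 7.59e-05), and 156 and 176 in WT Treg against 698 and 594 in WT Teff (log2 fold change -1.95, adjusted p = 6.90e-05). Oas1a had 783 and 738 in KO Treg against 375 and 398 in KO Teff (log2 fold change 0.97, adjusted p = 0.000200), and 965 and 998 in WT Treg against 654 and 611 in WT Teff (log2 fold change 0.63, adjusted p = 0.00180). Oas3 was lower in Treg, at -0.33 in KO and -0.58 in WT (adjusted p = 0.0490 and 0.00533), the KO call being lost in 12 of 18 alternatives (without each single library but KO Treg replicate 2 among them, with adjusted p up to 0.232).

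Ly6e had 35340 and 36050 in KO Treg against 25000 and 23250 in KO Teff (log2 fold change 0.57, SE 0.05, adjusted p = 0.000129), and was higher by 0.47 in WT Treg (adjusted p = 0.000410). Eif2ak2 was higher by 0.76 in KO and 0.77 in WT, and Isg20 by 0.81 and 0.58. Tgtp1 had 633 and 578 in KO Treg against 969 and 1255 in KO Teff (log2 fold change -0.87, adjusted p = 0.00213), and 708 and 695 in WT Treg against 1078 and 1026 in WT Teff (log2 fold change -0.58, adjusted p = 0.0137). Trim12a was lower in Treg by -0.46 in KO and -0.49 in WT. Within the immunity-related GTPases, Irgm2 was higher in Treg (0.48 in KO and 0.41 in WT) and Ifi47 lower (-0.35 and -0.51). Over the 18 alternatives 12 of the 22 calls in KO and 11 of the 19 in WT held throughout. Those that did not included Irgm2 and Ifi47 in both genotypes. Leaving out WT Treg replicate 1 or 2 ended the call of Isg20 in WT, at adjusted p of at most 0.0539. The same libraries, and WT Teff replicate 1, each ended that of Tgtp1 in WT when left out, at most 0.0722. The 4 transcription factors were not called in either genotype, with fold changes from -0.35 (Irf7 in KO) to 0.30 (Irf1 in KO).

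The signal chain that feeds these genes was measured in the same libraries. Ifng, the interferon gamma gene, was the 1 ligand of 10 listed with enough reads to test: Ifnk was near 0 and the other 8 were not analysed here. It had 445 and 534 in KO Teff against 1010 and 1112 in WT Teff (log2 fold change -1.12, adjusted p = 0.0224), and 223 and 146 in KO Treg against 260 and 285 in WT Treg (log2 fold change -0.59, adjusted p = 0.241). Of 5 tested receptor genes 1 was called, Ifngr2, with 1491 and 1555 in KO Teff against 1150 and 1029 in WT Teff (log2 fold change 0.48, adjusted p = 0.0217). The ligand gene was thus lower and 1 receptor gene higher in KO Teff. Ifnar1 and Ifnar2, the type I receptor, were not called between genotypes in either cell type (fold changes from -0.06 to 0.05).

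Stat4, which acts downstream of interleukin 12, had 2216 and 2175 in KO Teff against 2978 and 2897 in WT Teff, without overlap (log2 fold change -0.42, adjusted p = 0.00677). Of the 7 genes listed as restraints of cytokine signalling, not all of them particular to interferon, 1 fell in KO Teff, Cish (log2 fold change -0.65, adjusted p = 0.00677). Of 10 tested genes of nucleic acid sensing upstream of interferon, the factor Irf8 fell by 0.77 on the log2 scale and the kinase Tbk1 rose by 0.41. No gene of the ligand, receptor, restraint and sensing lists was called in KO Treg.

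Among 46 tested interferon-induced genes that were not members, 2 were called higher and 7 lower in KO Teff, against 1.84% and 5.08% of all tested genes, and 4 higher and 3 lower in KO Treg, against 0.674% and 0.779%. The lower ones in Teff were Mx2 (-1.35), which is annotated as a polymorphic pseudogene, and the antiviral genes Ifitm1 (-1.65), Ifitm3 (-1.41) and Ifitm2. Nmi, Lgals3bp and Cd274, which encodes the checkpoint ligand PD-L1, were the others. In Treg the lower ones were Parp12 (-0.82), Lgals3bp (-0.34) and the peptide transporter gene Tap1 (-0.28). Those called higher were mostly DNA-binding PYHIN genes in a cluster on chromosome 1: Ifi206 (0.93), Ifi208 (0.66) and Ifi213 (0.59) in KO Treg and Ifi208 (0.38) in KO Teff. The remaining one, the giant GTPase gene Gvin1 on chromosome 7, had 14950 and 15610 in KO Treg against 9377 and 8459 in WT Treg (log2 fold change 0.78, adjusted p = 0.00234). It also had 7566 and 8027 in KO Teff against 5204 and 5396 in WT Teff (log2 fold change 0.56, adjusted p = 0.00505). The medians of this list were -0.09 in KO Treg and -0.03 in KO Teff.

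**Figure D5:**
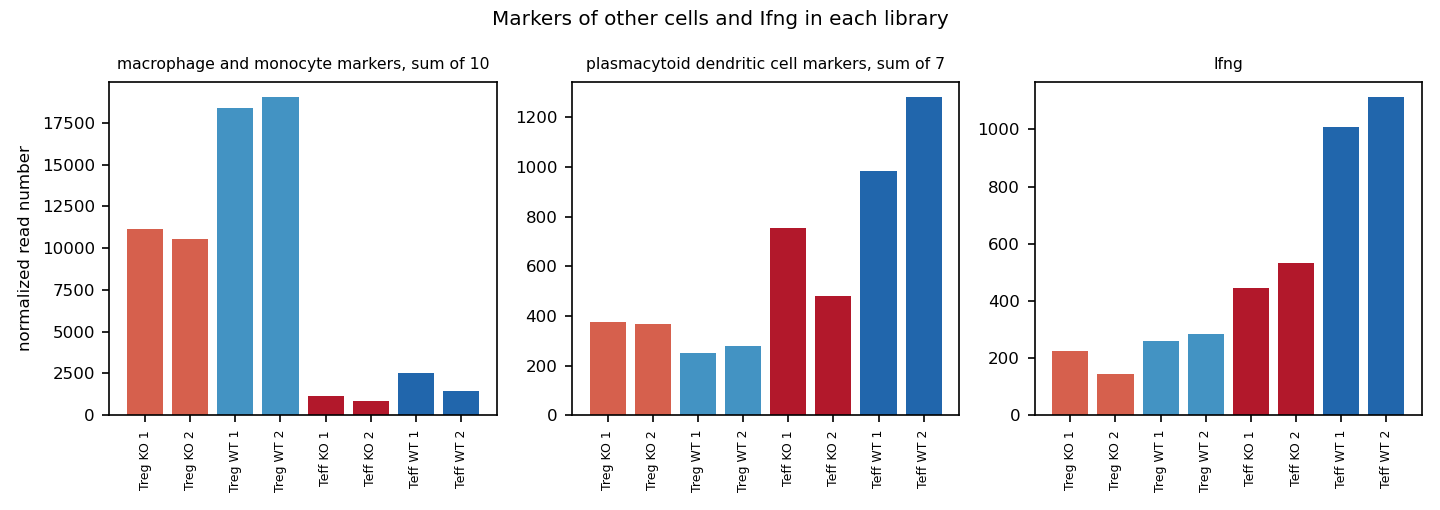
Normalized read numbers in every library (bars, KO left of WT) of the summed macrophage and monocyte markers, the summed plasmacytoid dendritic cell markers and Ifng. The macrophage sum is highest in WT Treg (18420 and 19030), and Ifng is highest in WT Teff (1010 and 1112).

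Markers of several other cell types differed between genotypes in the same libraries. All 10 macrophage and monocyte markers in the table were below 0 in KO in both cell types, with 0 called, at medians of -1.10 in Teff and -0.81 in Treg on the log2 scale. In Teff 8 of the 10 were lower without overlap. The WT Teff libraries differed in some, such as C1qa, with 215 and 49.4 in WT Teff against 58.8 and 48.4 in KO Teff. Ly6c2, the 1 marker of the 10 that was lower in Treg than in Teff, had 431 and 538 in WT Teff. All 7 plasmacytoid dendritic cell markers, whose cells are the main makers of type I interferon, were below 0 in KO Teff with 1 called (Spib), and summed to 752 and 481 in KO Teff against 984 and 1280 in WT Teff. In Treg their sum was 373 and 368 in KO against 249 and 280 in WT, the opposite order. However, 4 of the 7 were above 0 and 3 below in KO Treg (Siglech, Klk1 and Cox6a2), with 0 called. The largest parts of the Treg sum were Tcf4 (169 and 176 in KO against 66.7 and 115 in WT) and Ccr9 (120 and 125 against 86.2 and 80.5). Conventional dendritic cell markers summed to 626 and 358 in KO Teff against 786 and 1458 in WT Teff, with 1 of 5 called, and to 207 and 186 in KO Treg against 343 and 369 in WT Treg, where Cd209a was listed at 0 in all 4 libraries. Between cell types, 8 of the 10 macrophage markers were called higher in Treg than in Teff in KO, and 9 of 10 in WT, with 1 called lower in each. The 6 Treg markers summed to 7905 and 7030 in KO Teff against 10010 and 11460 in WT Teff, with 4 called lower and 1, Foxp3, called higher. The Foxp3 call rests on few reads. Its values were at most 8.29 in any Teff library, and it passed the filter only through the Treg libraries. In Treg the 6 markers summed to 50330 and 49370 in KO against 56530 and 55960 in WT, with 0 called. The 4 natural killer cell markers summed to 557 and 454 in KO Teff against 695 and 786 in WT Teff, and to 57.1 and 53.9 in KO Treg against 61.4 and 74.8 in WT Treg. The 6 B cell markers summed to 519.7 and 473 in KO Treg against 332 and 349 in WT Treg, and to 89.1 and 249 in KO Teff against 121 and 122 in WT Teff, where the groups overlapped. Pax5 alone had 178 and 162 in KO Treg against 5.74 and 2.87 in WT Treg, and 9.06 and 168 in KO Teff. Of the 6 markers, 4 were above 0 and 2 below in KO Treg. Cd79b, 1 of the latter, had 186 and 224 in KO Treg against 230 and 253 in WT Treg. No natural killer or B cell marker was called between genotypes. The part of these cells in the members' differences was not tested, and in such libraries fewer cells of a type and less RNA per cell cannot be told apart.

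The presence of the promoter motifs was set beside the calls. Of the 13 members lower in KO Teff, 9 were in the promoter table, and 8 of these held an ISRE match and 9 either motif. Of the 29 members in that table that were not called, 14 held an ISRE match and 18 either motif. Igtp, Irgm2 and Tgtp1, with both motifs side by side, were among those not called between genotypes. Trim12a, the 1 member called higher in KO Teff, also held an ISRE match. For WT Treg against WT Teff, ISRE matches were in 7 of 8 members called higher, 5 of 6 lower and 11 of 25 not called. In KO these counts were 9 of 10, 4 of 7 and 10 of 22. A high share of ISRE matches was thus not particular to the members lower in KO Teff. Members also lay on chromosome 11 with Ern1: the 9 there were 4.94 to 57.5 Mb from it, and of these only Dhx58 was called between genotypes.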

How the data were processed

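Polyadenylated RNA was sequenced as 50-base single-end reads, per the labels' protocols, which name no strand-marking step and no molecular identifiers, so overlapping and near-identical genes may share reads. Tools named in the submitters' processing notes are DESeq2 1.28.1, R 4.0.3, Salmon 0.14.1 and Trim Galore 0.4.4, with build mm10. Settings were not given in the sources used here. In all, the deposited table held 18438 genes, with 1 signal value (a read number normalized by the authors) for each library. Between 26.6% and 29.1% of positive values were whole multiples of the commonest step (tolerance 0.02). This left no whole reads for a count test. The authors also deposited log2 fold changes and adjusted p-values of KO over WT, used only where named.

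Genes at 10 or more in at least 2 libraries were put on the log2(value + 1) scale and fitted in R 4.3.3 by limma 3.58.1 with its trend and robust options, 1 coefficient per group over all 8 libraries, 4 residual degrees of freedom, and 5 contrasts, each adjusted by Benjamini-Hochberg over 13358 genes and called at 0.05. The procedure was tested on simulated data. Fold changes on this scale understate those of weak genes. Precision rests on 2 libraries per group. Groups came from the cell type and genotype labels. Libraries with the same replicate number showed little shared deviation (correlations from -0.04 to 0.06). This does not test a pairing under other numbers, so whether groups shared animals stays unknown. Values in every library are given mainly for the 8 smallest adjusted p per contrast, a fixed list of pathway members, and the extremes of each role group. The members, lists and rules were chosen with earlier results of these data known. Coordinates are GENCODE M21 on GRCm38, with all 18438 identifiers found, 17918 with the same version. Tables were made with pandas 2.3.3 and numpy 2.4.6 and figures with matplotlib 3.10.9, in Python 3.11.15. One gene of the pathway lists is not reported here.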

Additional observations from a re-analysis of the deposited data

How the results depend on the processing

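Each count and each named fold change was recomputed under 18 alternatives (17 for the difference of effects): other pseudocounts, filters, scalings, variance models and fits, and each library left out. Of 1616 fold changes recomputed, 1394 kept direction and side of the threshold, 201 lost a call, 6 gained one and 15 changed sign, none of them a call. Of 178 recomputed counts, 25 moved by over 1.5 times. Members called lower in KO Teff, 13 with all libraries, numbered 1 in a fit of just the 4 Teff libraries, 4 without trend and robust shrinkage, 8 with the replicate number as a block, and 3 to 8 when each library was left out. Members called lower in KO Treg, 0 with all libraries, numbered 1 with quantile normalization (1.89% against 0.868% of all genes). In a fit of just the 4 Treg libraries they numbered 2 (3.77% against 1.14%). For Treg against Teff, leaving out each library gave 7 to 11 higher and 4 to 9 lower in WT, and 10 to 15 higher and 4 to 7 lower in KO. The KO count of lower members, 8 (15.1%, against 11.2% of all genes), became 4 with library totals, with only the 2 groups fitted, and without trend and robust shrinkage. That is 7.55% of members each time, against 8.68%, 8.97% and 9.39% of all genes. The fold changes that changed sign lay near 0. In KO Treg, Stat2 became 0.013 with the upper quartile and 0.0159 with library totals, and Irf9 0.011, 0.0139 and, with quantile normalization, 0.0103. With each library left out, Stat2 ranged from -0.0338 to 0.0287, Irf9 from -0.0605 to 0.0514 and Irf1 from -0.3723 to 0.0064 in KO Treg. In KO Teff the ranges were -0.2166 to 0.0026 for Stat2, -0.2329 to 0.0174 for Irf7, -0.0219 to 0.2106 for Oas2, -0.1184 to 0.2538 for Tgtp1 and -0.1983 to 0.0254 for Usp18. The cause of these changes was not tested, beyond the fewer libraries in a fit. Libraries with the same replicate number showed little shared deviation, and the block moved no other member count by over 1.5 times. Over all genes it left 58 higher and 56 lower in KO Treg, against 90 and 104 without it. In every alternative with no single library left out, the share of members called lower in KO Teff was above that of all genes. In the fit of just the 4 Teff libraries this rested on 1 member (1.89% against 0.921%). Over all alternatives 37 to 47 members were below 0 in KO Teff, with a median from -0.34 to -0.17. Scalings moved the median of all genes by under 0.1. With 2 libraries per group and values that are not counts, small differences in weak genes such as Iigp1, Oas1g and Ifi44 were not detectable.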

Other observations

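Among the antiviral members not yet described, Ifi35, an adaptor protein gene on chromosome 11 that lay nearest to Ern1 of all members, had 994 and 1074 in KO Treg against 1041 and 1016 in WT Treg, and 1080 and 1138 in KO Teff against 1063 and 1080 in WT Teff. Cmpk2, a mitochondrial nucleotide kinase gene next to Rsad2, had 281 and 182 in KO Teff against 329 and 406 in WT Teff, and 244 and 211 in KO Treg against 145 and 243 in WT Treg, and was not called in either. Its values in KO Teff lay below those in WT Teff without overlap (log2 fold change -0.69, limma adjusted p = 0.233). Gbp2b, an interferon-induced gene that was not a member, had 197 and 229 in KO Treg against 5.16 and 4.12 in KO Teff, and 230.4 and 235 in WT Treg against 4.02 and 4.03 in WT Teff (log2 fold change 5.25 in KO and 5.54 in WT, limma adjusted p = 1.69e-05 and 1.90e-05). It thus separated the cell types more widely than any of the 7 member genes of its family. Socs1, a feedback inhibitor of the receptors, was higher in Treg in both genotypes (0.34 in KO and 0.55 in WT), and 4 of 5 tested receptor genes were higher in Treg in both, the exception being Ifngr2 (-0.75 in KO and -0.35 in WT).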
